A study of Mus musculus with 6 samples.

Results

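The genes described here are the 7 mouse globin genes Hbb-bt, Hbb-bs, Hbb-y, Hbb-bh1, Hba-a1, Hba-a2 and Hba-x, found by their names among the 54532 rows of the gene table. All 7 had a row, and no name occurred on more than a single row. LSKs are the lineage-negative, Sca1-positive, c-Kit-positive fraction of bone marrow (BM), which holds the hematopoietic stem and progenitor cells. RNA-seq compared 3 libraries of control LSKs (CTRL, genotype Myh9fl/fl;no cre) with 3 libraries of Myh9-deficient LSKs (cKO, genotype Myh9fl/fl;Mx1-cre), all from C57BL/6 littermates. Both groups carried the floxed Myh9 alleles and both received poly I:C at 5 mg/kg, in 2 doses every other day by the sample descriptions, while the paper's methods give another number of doses. Mice were genotyped at 4 to 5 weeks of age, and 100000 LSKs were sorted for each library 4 days after the first injection. Mx1-cre is switched on by interferon in blood cells and in other tissues, so the deletion was not limited to LSKs. The paper speaks of 3 independent sets of LSKs. Neither how many mice gave each library nor whether libraries of a group came from separate mice is stated, and p-values measure the spread between these libraries.

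Hemoglobin, the oxygen carrier of red cells, is a tetramer of alpha-like and beta-like globin chains, each holding a heme. The alpha-like genes lie together on chromosome 11 and the beta-like genes on chromosome 7, in an order that follows their use in development. Hba-a1 and Hba-a2 encode the adult alpha chain, and Hbb-bs and Hbb-bt the adult beta chains of the haplotype that C57BL/6 mice carry. Hba-x encodes the embryonic zeta chain, and Hbb-y and Hbb-bh1 encode embryonic beta-like chains of primitive red cells. In adult BM the adult genes are turned on strongly during erythroid maturation, under GATA1, KLF1 and distal enhancers, and stem and progenitor cells hold little globin RNA.

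Near copies decide what a row of this table can show, so the sequences come first. In GENCODE M21 (GRCm38), each of the 7 genes has a main coding transcript of 3 exons, with 426 coding bases before the stop codon in the alpha-like genes and 441 in the beta-like genes. The coding sequences of Hba-a1 and Hba-a2 were 99.8% identical and differed at 1 base, C381T (the base of Hba-a1 first, positions counted from the first base of the start codon). Those of Hbb-bs and Hbb-bt were also 99.8% identical and differed at 1 base, C417T (the base of Hbb-bs first). Neither difference changed the encoded residue. The 60 coding bases around each difference are shown because they are the part of the coding sequence where a read can tell the copies apart. Capitals mark the base that differs between the adult copies and, in the embryonic genes, every base that differs from the first gene of the block. Bases 351 to 410 of the alpha-like genes read:
Hba-a1: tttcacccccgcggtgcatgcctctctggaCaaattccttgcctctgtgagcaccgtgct
Hba-a2: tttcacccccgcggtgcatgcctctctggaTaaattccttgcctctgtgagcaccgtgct
Hba-x: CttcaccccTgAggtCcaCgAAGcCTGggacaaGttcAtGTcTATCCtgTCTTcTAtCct

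Bases 382 to 441 of the beta-like genes read:
Hbb-bs: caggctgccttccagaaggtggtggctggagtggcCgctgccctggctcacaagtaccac
Hbb-bt: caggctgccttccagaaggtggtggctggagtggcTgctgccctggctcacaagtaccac
Hbb-y: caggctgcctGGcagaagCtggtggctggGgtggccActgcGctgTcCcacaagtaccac
Hbb-bh1: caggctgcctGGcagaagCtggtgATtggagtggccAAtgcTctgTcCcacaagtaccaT

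Hba-x differed from Hba-a1 at 27 of these 60 bases, Hbb-y from Hbb-bs at 8 and Hbb-bh1 from Hbb-bs at 11. Over the whole coding sequence, Hba-x was 61.7% identical to Hba-a1, Hbb-y 74.4% identical to Hbb-bs and Hbb-bh1 73.9% identical to Hbb-bs. Every window of 50 bases of the Hba-x, Hbb-y and Hbb-bh1 transcripts was found in no transcript of another gene. In the adult genes such windows were fewer. They made up 41.7% of the Hbb-bt transcript, 34.2% of Hbb-bs, 32.5% of Hba-a1 and 13.1% of Hba-a2, and the windows that were shared were shared within the adult alpha pair or within the adult beta pair. With windows of 150 bases the shares were 49.3% for Hbb-bt, 41.3% for Hbb-bs, 51.6% for Hba-a1 and 34.3% for Hba-a2. Only transcripts were searched, not the genome. The Hba-a1 transcript has 196 bases before its coding sequence and that of Hba-a2 has 35. Windows in the extra bases of Hba-a1 count as its own, while the genome upstream of Hba-a2 shares an identical run of 247 bases with it (below). The shares of Hba-a1 can therefore overstate how well its reads are told apart. Within the coding sequence, only 25 of 392 windows of 50 bases told Hbb-bs and Hbb-bt apart, and 46 of 377 told Hba-a1 and Hba-a2 apart. How the authors' counting treated reads that match several genes is not given in the sources used here. The values of an adult gene can therefore hold reads of its copy or lack reads shared with it, and the summed values of each pair are given beside those of the single genes.

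**Figure D1:**
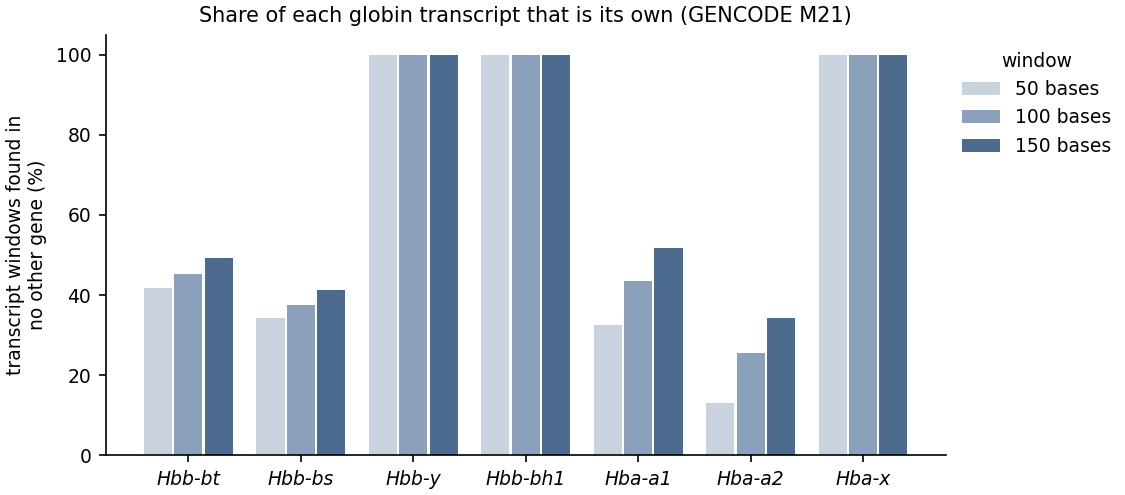
Share of each globin transcript, in percent of its windows of 50, 100 and 150 bases, that occurs in no transcript of another gene (bars, GENCODE M21). The 3 embryonic genes stand at 100% and the 4 adult genes between 13.1% and 51.6%, with Hba-a2 lowest at each window length. Only transcripts were searched, not the genome, so the longer annotated leader of Hba-a1 counts as its own.

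The promoters of 6 of the 7 genes were in the RefSeq table used (GRCm38.p6), and the starts are those of RefSeq. For Hba-a1 (chr11:32283672) and Hbb-bs (chr7:103827928) the start lies inside the gene span printed below, and so do the bases shown. In Hba-a1 and Hba-a2, 247 of the 250 bases upstream of the start were a single identical run, set off by 3 bases. The 120 bases upstream of the start in Hbb-bs and Hbb-bt were 72.7% identical when aligned. The bases from 95 to 66 upstream are shown because they hold, in both adult beta genes, a CACCC and a CCAAT motif. KLF1 is known to bind an element of the CACCC type at the adult beta-globin promoter, and binding at these matches was not tested. Capitals mark CACCC and, on either strand, CCAAT.
Hbb-bs (chr7:103827994-103828023, minus strand): agccaCACCCtggtaagggCCAATctgctc
Hbb-bt (chr7:103813989-103814018, minus strand): gggtaaCACCCtggcATTGGCCAATctgct
Hba-a1 (chr11:32283577-32283606, plus strand): aaaccagCCAATgagaactgctccaagggc

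Within 120 bases upstream, all 6 genes held CACCC on either strand, as did 31.7% of all 32851 promoters in the table. The longer CCACACCC, which contains CACCC, was found in Hbb-bs alone of these 6, and in 1.84% of all promoters. CCAAT was found in 5 of the 6 (21.3% of all promoters) and TATAA in 5 of the 6 (11.8% of all promoters). GATAA was found in Hba-x alone of the 6 (10.5% of all promoters). These are matches of letters and do not show binding.

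The libraries held 17571544 to 19894562 reads on genes. Values are FPKM, which divides fragment numbers by gene length and by the library's total, and each value times its gene length was a whole multiple of a fixed step, so that the reads behind every value were recovered. Myh9, the targeted gene, was at 23.0, 22.6 and 22.0 FPKM in the control libraries and at 18.4, 20.0 and 17.7 FPKM in the Myh9-deficient libraries. The groups did not overlap, with a log2 fold change of FPKM + 1 of -0.26 (SE 0.049, limma, adjusted p = 0.00642). Whole-gene values cannot show the loss of single exons.

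Adult globin RNA was higher in Myh9-deficient than in control LSKs, and most of the difference in reads was in Hbb-bt. The Hbb-bt row (ENSMUSG00000073940, chr7:103812524-103813996, minus strand, mm10) had 43, 46 and 56 reads in the control libraries and 489, 571 and 400 in the Myh9-deficient libraries. In FPKM these are 3.08, 3.71 and 4.15 against 37.1, 44.5 and 30.6. The groups were far apart, the lowest Myh9-deficient library holding 400 reads and the highest control library 56. Mean levels were 3.65 ± 0.540 and 37.4 ± 6.99 FPKM (SD, n = 3 each), a ratio of 10.3. On the scale of log2(FPKM + 1), the difference was 3.04 (SE 0.144, limma, adjusted p = 2.4e-05), rank 6 among the 11552 genes tested when ordered from the largest rise. Over all genes tested, 19.9% were called higher and 20.6% lower at an adjusted p under 0.05, and 1.43% were higher by more than 2-fold with an unadjusted p under 0.05. In bulk RNA, more cells with globin RNA and more globin RNA per cell cannot be told apart.

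Hbb-bs (ENSMUSG00000052305, chr7:103826534-103828096, minus strand), the other adult beta gene, had 11, 8 and 5 reads in control and 34, 24 and 34 reads in Myh9-deficient LSKs. Its levels were 0.720, 0.591 and 0.339 FPKM against 2.36, 1.71 and 2.38 FPKM. The groups did not overlap, with means of 0.550 ± 0.194 and 2.15 ± 0.380 FPKM (SD, n = 3 each), a ratio of 3.91. The log2 fold change of FPKM + 1 was 1.02 (SE 0.133, limma, adjusted p = 0.00150), which understates the change of a gene this low, and 1.97 with voom on the recovered reads. Hbb-bt and Hbb-bs summed, which an exchange of reads between the copies can alter only through their unequal lengths, rose from 4.20 ± 0.359 to 39.6 ± 6.65 FPKM (SD, n = 3 each; log2 fold change of FPKM + 1 2.95, SE 0.119, limma, adjusted p = 1.3e-05).

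Hba-a1 (ENSMUSG00000069919, chr11:32283511-32284465, plus strand), an adult alpha gene, had 11, 15 and 11 reads in control and 73, 45 and 39 reads in Myh9-deficient LSKs. Its levels were 0.681, 1.05 and 0.706 FPKM against 4.80, 3.04 and 2.58 FPKM. All Myh9-deficient libraries were above all control libraries, and replicate 1 stood highest. Means were 0.812 ± 0.205 and 3.47 ± 1.17 FPKM (SD, n = 3 each), a ratio of 4.28, with a log2 fold change of FPKM + 1 of 1.28 (SE 0.186, limma, adjusted p = 0.00229), or 2.06 with voom on the recovered reads. Its near copy Hba-a2 (ENSMUSG00000069917, chr11:32296489-32297298, plus strand) was almost without reads, at 2, 3 and 3 in control and 0, 1 and 0 in Myh9-deficient LSKs. The groups did not overlap, in the direction opposite to Hba-a1, and the ratio of Myh9-deficient to control reads was 0.129 (95% exact counting interval 0.00291 to 0.964). Hba-a2 lay below the filter of a mean of 1 FPKM and was not tested there. Without the filter it was called lower (log2 fold change -0.24, limma, adjusted p = 0.0257). The adult alpha pair summed rose from 1.03 ± 0.247 to 3.50 ± 1.16 FPKM (SD, n = 3 each; log2 fold change of FPKM + 1 1.13, SE 0.186, limma, adjusted p = 0.00381).

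The embryonic genes were at or near 0. Hbb-bh1 (ENSMUSG00000052217, chr7:103841637-103843164) and Hba-x (ENSMUSG00000055609, chr11:32276400-32278116) had no read in any of the 6 libraries. A count of 0 allows up to 3 reads, which is 0.246 to 0.279 FPKM for Hbb-bh1 and 0.161 to 0.182 FPKM for Hba-x, depending on the library. Hbb-y (ENSMUSG00000052187, chr7:103851749-103853216) had 0, 0 and 0 reads in control and 3, 0 and 6 reads in Myh9-deficient LSKs. Replicate 2 of the Myh9-deficient libraries was at 0 like the controls, so the groups overlapped. Of the 9 reads in all, 6 were in replicate 3. Hbb-y lay below the filter, and without the filter it was not called (log2 fold change 0.31, limma, adjusted p = 0.240). These limits and intervals cover counting error only.

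Of the 7 genes, 3 passed the filter of a mean of 1 FPKM over the 6 libraries, and all 3 were called higher. Hba-a1 and Hbb-bs passed it only through their level in Myh9-deficient LSKs, so this count does not stand as evidence beyond their own values. Among genes tested, 25.5% had every Myh9-deficient library above every control library. Per length, Hbb-bt was the highest of the 7 in every library. Ordered by FPKM among all 54532 rows, it stood at positions 8709, 8137 and 7763 in control and 1754, 1439 and 2058 in Myh9-deficient LSKs. Hba-a1 stood at positions 11409 to 12322 in control and 7239 to 9206 in Myh9-deficient LSKs. In control LSKs, Hba-a1 (0.812 ± 0.205 FPKM) was above Hbb-bs (0.550 ± 0.194 FPKM) in replicates 2 and 3 and below it in replicate 1. In Myh9-deficient LSKs (3.47 ± 1.17 and 2.15 ± 0.380 FPKM) every library had Hba-a1 above Hbb-bs. These genes were not tested against each other.

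**Figure D2:**
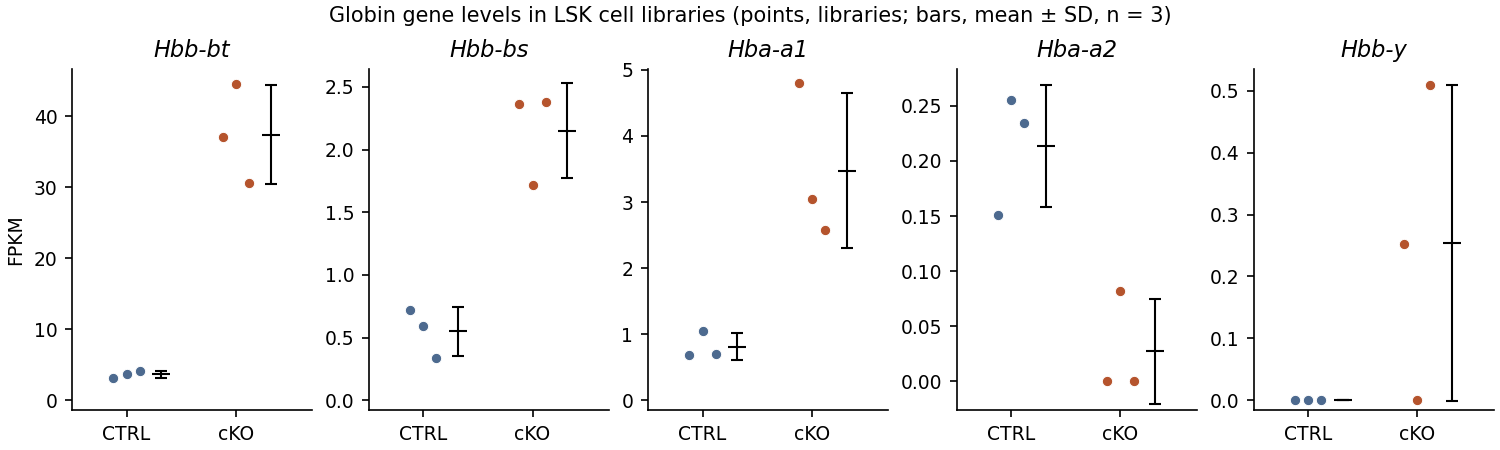
FPKM of the 5 globin genes with a read in any library, for the 3 control (CTRL) and 3 Myh9-deficient (cKO) libraries (points), with mean ± SD beside them and a separate linear axis for each gene. Hbb-bt, Hbb-bs and Hba-a1 are higher in every cKO library than in any CTRL library, Hba-a2 is lower in every cKO library, and Hbb-y is above 0 in 2 cKO libraries.

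The spread between libraries was compared with what counting alone gives. In control LSKs, the coefficient of variation of depth-scaled reads was 14.4% for Hbb-bt, where 48.3 reads on average give 14.4% by counting. It was 25.8% for Hba-a1 (28.5% by counting) and 35.6% for Hbb-bs (35.4% by counting). In Myh9-deficient LSKs the spread of Hbb-bt was 18.9%, against 4.53% by counting from 486.7 reads on average, and that of Hba-a1 was 33.6% against 13.8%. That of Hbb-bs was 17.5% against 18.1%. The counting values take each read as an independent molecule and hold no variation between samples. They are a reference beside which the spread is set, not a test, and the spread of 3 libraries can fall below them. The highest Myh9-deficient library was replicate 2 for Hbb-bt and replicate 1 for Hba-a1.

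Globin reads as a whole were a small part of each library. The 7 genes together had 67, 72 and 75 reads in control and 599, 641 and 479 reads in Myh9-deficient LSKs, or 3.37, 4.10 and 3.87 against 32.3, 35.6 and 26.0 RPM (reads per 1000000 reads on genes). This is an 8.24-fold difference, with no overlap (exact permutation test, two-sided, p = 0.1, the smallest that 3 against 3 libraries can give). Without Hbb-bt, the others had 1.21, 1.48 and 0.980 against 5.93, 3.89 and 4.29 RPM, a 3.84-fold difference. Hbb-bt made up 64.2%, 63.9% and 74.7% of the globin reads in control LSKs and 81.6%, 89.1% and 83.5% in Myh9-deficient LSKs.

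The alpha share of globin RNA lay lower in every Myh9-deficient library. Alpha genes gave 18.0%, 23.2% and 17.3% of adult globin FPKM in control and 10.8%, 6.32% and 7.26% in Myh9-deficient LSKs. Means were 19.5 ± 3.25% and 8.14 ± 2.38% (SD, n = 3 each), a difference of -11.4 percentage points without overlap (exact permutation test, two-sided, p = 0.1, the smallest possible). Within the beta pair, Hbb-bt held 79.6%, 85.2% and 91.8% of reads in control LSKs and 93.5%, 96.0% and 92.2% in Myh9-deficient LSKs, so that control replicate 3 came close to the Myh9-deficient libraries. Within the alpha pair, Hba-a1 held 84.6%, 83.3% and 78.6% of reads in control LSKs and 100%, 97.8% and 100% in Myh9-deficient LSKs. Only windows in which the copies differ can assign a read to its copy, and the part of the authors' counting in these shares was not tested.

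**Figure D3:**
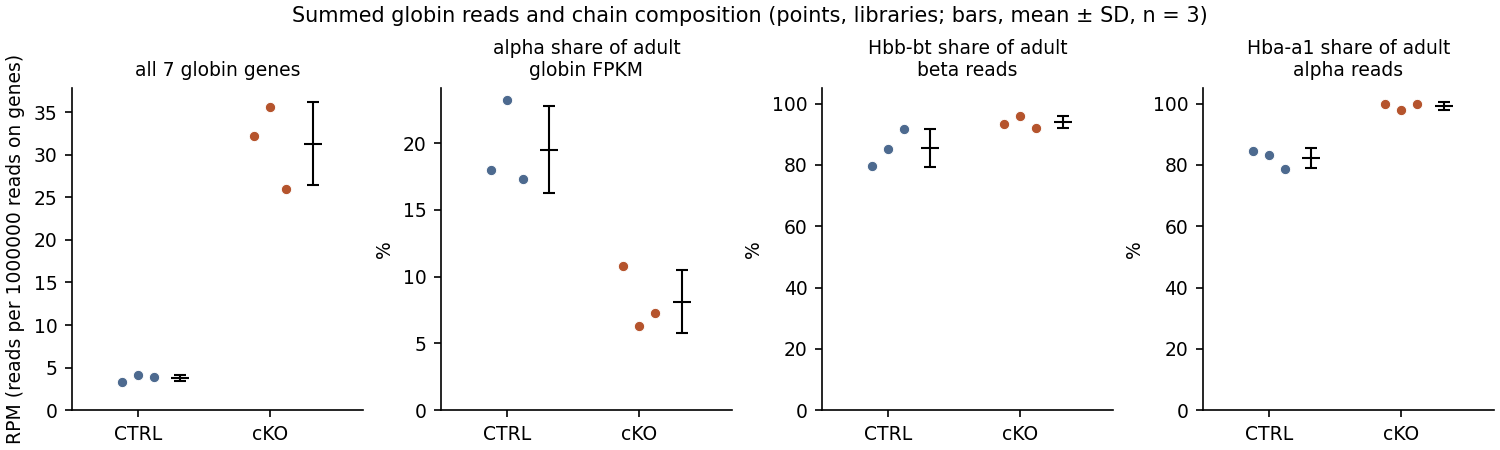
Summed RPM (reads per 1000000 reads on genes) of the 7 globin genes, the alpha share of adult globin FPKM, the Hbb-bt share of adult beta reads and the Hba-a1 share of adult alpha reads (the last 3 in percent) in the 3 CTRL and 3 cKO libraries (points; mean ± SD beside them). The alpha share lies at 17.3% to 23.2% in CTRL and 6.32% to 10.8% in cKO, while the Hbb-bt share of beta reads in the groups comes as close as 91.8% and 92.2%.

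Other rows of the globin family held few reads. Hba-ps4, an alpha-globin pseudogene, had 0, 4 and 0 reads in the control libraries and 0, 0 and 1 in the Myh9-deficient ones. The theta-globin genes Hbq1a and Hbq1b, the rows Hbb-bh0, Hbb-bh2, Hbb-bh3 and Hba-ps3, and Mb, the muscle oxygen store myoglobin, had no read. Ngb, the neuronal globin, had 0, 2 and 0 reads in the control libraries and 4, 1 and 0 in the Myh9-deficient ones. Cygb, the gene of cytoglobin, had no read in control and 8, 7 and 14 reads in Myh9-deficient LSKs, at least 9.998-fold higher against a floor of 3 reads over the control group. No row was named Hbb-b1 or Hbb-b2, the adult beta genes of other haplotypes.

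The neighbours of the globin genes were looked at within 100 kb. On chromosome 11, 3 of 9 neighbours were tested. Nprl3, a GATOR1 subunit whose introns hold the alpha-globin enhancers, was not called (log2 fold change of FPKM + 1 of 0.097, limma, adjusted p = 0.361). Mpg, a DNA glycosylase, rose from 2.22 to 2.92 FPKM (limma, adjusted p = 0.0381), and Snrnp25, a splicing factor, from 56.6 to 63.1 FPKM (limma, adjusted p = 0.0297). The call of Mpg was lost under 8 of 14 other settings (adjusted p up to 0.109) and that of Snrnp25 under 7 of 15 (up to 0.112), leaving out single libraries of either group among them. Below the filter, Sh3pxd2b had 212, 171 and 215 reads in the control libraries and 107, 100 and 110 in the Myh9-deficient ones. Il9r had 7, 5 and 5 against 12, 16 and 9 reads, and Rhbdf1 8, 32 and 25 against 29, 16 and 36. These untested genes were added after their values were seen, and the other 3 neighbours there had no read. On chromosome 7, 13 of 19 neighbours were olfactory receptor genes and 16 had no read. The only neighbour tested there, the pseudogene Dnajc19-ps, was not called (limma, adjusted p = 0.645). Of a list of 8 genes around the alpha-globin cluster and its human counterpart, 6 were tested. Of these, 3 (50%) were called higher and 1 (16.7%) lower, beside 19.9% and 20.6% of all genes tested. The median of their log2 fold changes (of FPKM + 1) was 0.11, against -0.0096 over all genes tested.

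Of 24 tested regulators of globin transcription, 7 (29.2%) were called higher and 3 (12.5%) lower, beside 19.9% and 20.6% of all genes tested, and the median of their log2 fold changes (of FPKM + 1) was -0.022. Klf1, the activator of the adult beta-globin gene, rose from 44.4 ± 1.54 to 63.5 ± 3.51 FPKM (log2 fold change 0.50, limma, adjusted p = 3.8e-04). Gata1, the main erythroid transcription factor, rose from 33.0 ± 0.620 to 42.4 ± 1.06 FPKM (0.35, limma, adjusted p = 2.9e-04). Mbd2, a methyl-CpG binding protein, rose by 0.29 on the log2 scale, Zfpm1 (FOG1), the partner of GATA1, by 0.20, and Gata2, a factor of early progenitors, by 0.18. Nr2c2, a nuclear receptor that binds embryonic globin promoters, fell by 0.31 on the log2 scale, Mafk, the small partner of NF-E2, by 0.20, and Zbtb7a, a repressor of fetal globin genes, by 0.14. Of the other settings tried, Zbtb7a lost its call under 10 of 15, with adjusted p up to 0.117. Leaving out control replicate 1 or 2 or Myh9-deficient replicate 1 or 2 ended the call of Zfpm1 (adjusted p up to 0.0636), leaving out control replicate 2 or Myh9-deficient replicate 3 that of Nr2c2 (up to 0.0633), and leaving out control replicate 1 that of Mafk (0.0506).

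Genes that handle globin chains and heme were measured as well. Of the 3 tested chain handling genes, Bach1, a heme-sensing repressor of globin genes, fell from 5.94 ± 0.608 to 4.34 ± 0.195 FPKM (limma, adjusted p = 0.00707). Eif2ak1 (HRI), the kinase that ties globin translation to heme, fell from 12.9 ± 0.231 to 10.9 ± 0.412 FPKM (limma, adjusted p = 0.00557), and Ube2o was not called. Ahsp, the alpha chain chaperone, had no row. Of 8 tested genes of heme synthesis, 5 (62.5%) were called higher and 1 (12.5%) lower, beside 19.9% and 20.6% of all genes tested. The median of their log2 fold changes (of FPKM + 1) was 0.22. Cpox and Ppox rose by 0.33 each on the log2 scale, Urod by 0.23 and Fech, which inserts the iron, by 0.21, the last not called without control replicate 2 (limma, adjusted p = 0.0525). Alas1, the housekeeping form of the first enzyme, fell from 79.7 ± 1.34 to 42.5 ± 0.774 FPKM (-0.89, limma, adjusted p = 4.8e-06). Alas2, the erythroid form, had 2, 1 and 5 reads in the control libraries and 2, 0 and 4 in the Myh9-deficient ones, and was picked for mention after its values were seen.

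Of 15 tested genes of iron and heme transport, 8 (53.3%) were called higher and 2 (13.3%) lower, beside 19.9% and 20.6% of all genes tested. The median of their log2 fold changes (of FPKM + 1) was 0.14. Hmox1, which breaks down heme, rose from 1.79 ± 0.602 to 3.71 ± 0.475 FPKM (0.78, limma, adjusted p = 0.0112), and Tfrc, the transferrin receptor CD71, from 16.3 ± 0.676 to 23.9 ± 1.53 FPKM (0.53, limma, adjusted p = 5.5e-04). Flvcr1, a heme exporter, rose by 0.36 on the log2 scale, Slc25a38, the mitochondrial glycine carrier, by 0.30 and Tmem14c, a porphyrin carrier, by 0.21. Slc25a37 (mitoferrin 1) fell by 0.20 on the log2 scale and Ftl1, the ferritin light chain, by 0.12, a call lost under 10 of 15 other settings (limma, adjusted p up to 0.125). The call of Tmem14c was lost under quantile normalization (adjusted p = 0.101).

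Of 18 tested early erythroid genes, 15 (83.3%) were called higher and 1 (5.56%) lower, beside 19.9% and 20.6% of all genes tested. The median of their log2 fold changes (of FPKM + 1) was 0.62. Their summed level was 791 to 797 FPKM in control and 1274 to 1313 FPKM in Myh9-deficient LSKs. Cldn13, an erythroid claudin, rose from 5.09 ± 0.723 to 17.0 ± 1.24 FPKM (1.56, limma, adjusted p = 6.0e-05). Car1, the red cell carbonic anhydrase, rose from 344 ± 1.04 to 618 ± 14.4 FPKM (0.84, limma, adjusted p = 3.8e-06). Sphk1, a sphingosine kinase, rose by 1.05 on the log2 scale, Rhd, a blood group protein, by 0.87, and Add2, a membrane skeleton adducin, by 0.84. Samd14 fell by 0.28 on the log2 scale. The rise of Hbb-bt (3.04) was larger than that of any tested gene of the 6 lists.

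Of 25 late erythroid genes listed, 14 passed the filter. Of these, 8 (57.1%) were called higher and 1 (7.14%) lower, beside 19.9% and 20.6% of all genes tested. The median of their log2 fold changes (of FPKM + 1) was 0.24. The summed level of the list was 134 to 138 FPKM in control and 159 to 164 FPKM in Myh9-deficient LSKs. Rhag, the Rh-associated glycoprotein, rose from 5.56 ± 0.214 to 14.2 ± 0.947 FPKM (1.21, limma, adjusted p = 2.4e-05). Acp5 rose by 0.60 on the log2 scale, Tspo2 by 0.41 and Hemgn by 0.36, and Bnip3l, which clears mitochondria, fell by 0.23. The 11 genes below the filter together had 474 to 541 reads in control and 771 to 884 reads in Myh9-deficient LSKs, and the genes named next were picked after their values were seen. Sptb, the gene of the red cell beta spectrin, had 81, 62 and 76 reads in the control libraries and 187, 230 and 206 in the Myh9-deficient ones. Slc4a1 (band 3), the main anion exchanger of the red cell membrane, had 8, 3 and 2 reads in the control libraries and 4, 1 and 0 in the Myh9-deficient ones. Slc4a1 and Alas2 thus stayed at no more than 8 reads in every library while Hbb-bt reached 400 to 571.

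**Figure D4:**
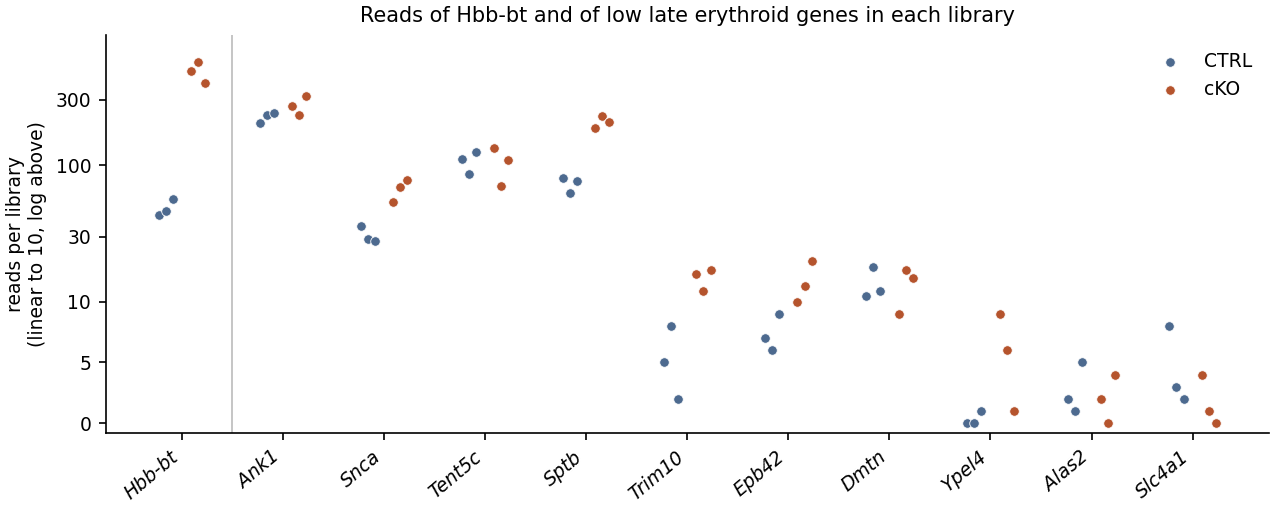
Reads per library of Hbb-bt (left of the line) and of 10 late erythroid genes with a low level, in the 3 CTRL and 3 cKO libraries (points; the vertical axis is linear to 10 and logarithmic above). Sptb is higher in every cKO library, while Alas2 and Slc4a1 hold 0 to 8 reads in both groups.

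**Figure D5:**
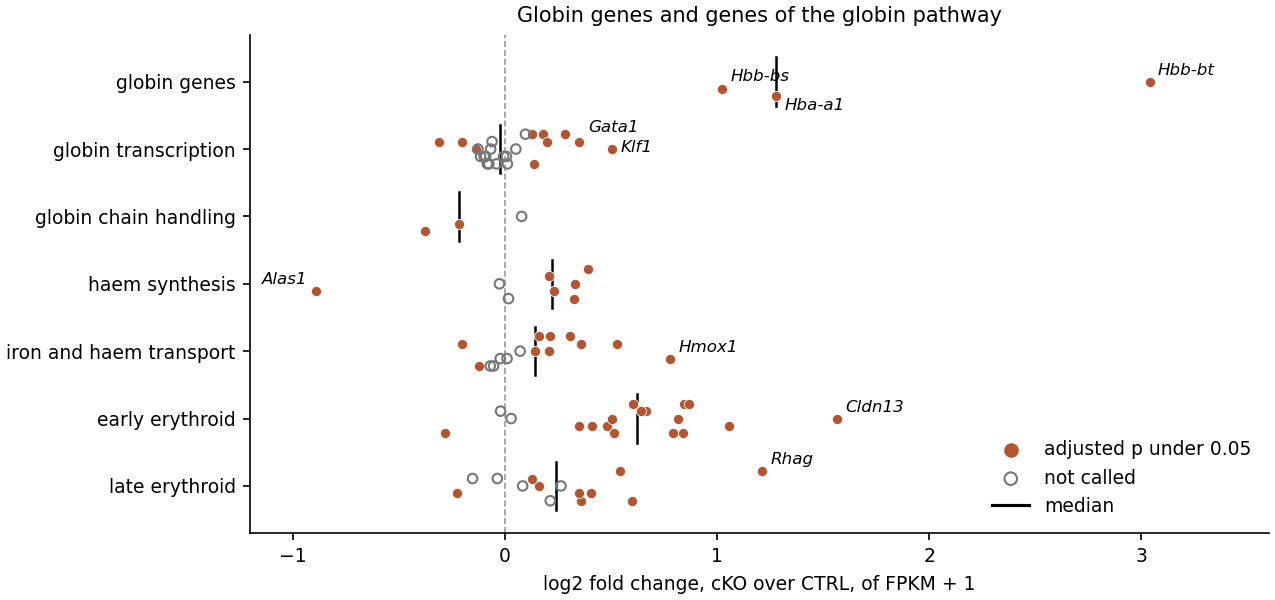
Log2 fold change of FPKM + 1, Myh9-deficient over control, of each tested globin gene and of each tested gene of 6 lists (points, filled where the limma adjusted p is under 0.05; vertical lines, medians; Klf1 and Gata1 stand in 2 lists). Hbb-bt at 3.04 lies farthest right, the early erythroid median is 0.62, and Alas1 at -0.89 lies farthest left.

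Markers of other cells moved too. Of the LSK and progenitor markers, 5 of 11 tested (45.5%) were called higher and 1 (9.09%) lower, beside 19.9% and 20.6% of all genes tested. Their summed level was 363 to 370 FPKM in control and 373 to 403 FPKM in Myh9-deficient LSKs. Kit (c-Kit) was at 23.9 ± 0.454 and 21.5 ± 0.334 FPKM and Ly6a (Sca1) at 95.4 ± 1.87 and 89.5 ± 3.63 FPKM, so both gate markers were present in every library. Megakaryocyte genes were called higher in 6 of 6 tested and mast cell and basophil genes in 6 of 7, beside 19.9% of all genes tested, with none called lower. Their summed levels were 71.8 to 76.7 and 126 to 137 FPKM in control LSKs against 148 to 154 and 190 to 199 FPKM in Myh9-deficient LSKs. B and plasma cell genes were called higher in 3 of 6 and lower in 1, and summed to 69.4 to 75.1 FPKM against 106 to 111 FPKM. T and NK cell genes were called higher in 3 of 4 and lower in 1, Nkg7, and summed to 367 to 379 FPKM against 341 to 345 FPKM, or 16.8 to 20.4 against 63.3 to 64.9 FPKM without Nkg7. Neutrophil genes were called higher in 3 of 11 and lower in 6, and summed to 3336 to 3397 FPKM against 1577 to 1646 FPKM. Most of that sum was Elane, the neutrophil elastase gene, and without it the list summed to 267 to 280 FPKM against 252 to 281 FPKM, with overlap. Nkg7 and Elane were picked for mention after their values were seen. Of the antigens used in the sort, 8 of 10 lay below the filter. Cd3e had no read in control and 0.183 to 0.282 FPKM in Myh9-deficient LSKs, Itgam (CD11b) was at 1.15 ± 0.297 and 0.707 ± 0.112 FPKM and Ly6g at 0.778 ± 0.513 and 0.897 ± 0.311 FPKM. The part of these cell types in the globin values was not tested.

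The genes most like the summed adult globins over the 6 libraries were Tspan33, an early erythroid tetraspanin gene (Pearson r 0.9997), Mrgbp (0.9994), Ruvbl2 (0.9990), Sap18b (0.9989) and H2-DMa (0.9989). Tspan33 was at 2.87, 3.04 and 3.04 FPKM in control and 6.11, 6.36 and 5.57 FPKM in Myh9-deficient LSKs, with the lowest Myh9-deficient value in replicate 3 as for Hbb-bt. These correlations are a description over 6 libraries in 2 groups, in which any gene that differs between the groups correlates, and 14.0% of 11549 genes had an r above 0.9.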

How the data were processed

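Total RNA of sorted LSKs from 3 control and 3 Myh9-deficient sets was sequenced after TruSeq library preparation. The authors deposited 1 table of FPKM, with the length of each gene and a column per library. The submitters' processing notes name HISAT2 2.0.5 and mm10, and the counting program, strand setting and treatment of multiply matching reads are not given in the sources used here. Reads were recovered from FPKM times gene length (100% of values whole within 0.01 of a read), for depth, low genes and an alternative test. No deposited column of values was left unused (0 columns).

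Genes averaging 1 FPKM or more over the 6 libraries (11552) were tested with limma 3.58.1 (R 4.3.3; lmFit and eBayes with trend, two-sided) on log2(FPKM + 1), with Benjamini-Hochberg adjustment over all genes tested and a threshold of 0.05. The script was tested on simulated data. Single values per library were compared by exact permutation (scipy 1.17.1). Lists were described by counts and medians. Transcripts came from GENCODE M21 and promoters from RefSeq (GRCm38.p6), the genome of mm10.

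The members and gene lists were chosen with earlier results of these data known. Genes named are all globin family rows, at most 5 called genes in each direction per pathway list by size of change, neighbours within 100 kb with at least 1 FPKM, the 5 genes most correlated with the adult globins, Myh9 and the markers Kit, Ly6a, Cd3e, Itgam and Ly6g. Some genes that this rule names are not reported here. Alternatives were a pseudocount of 0.1, no filter, a filter of 5 FPKM, median of ratios scaling, quantile normalization, TPM, no variance trend, a replicate block, voom on recovered reads, leaving out each library, and the 2-fold rule with unadjusted p under 0.05. For the summed values, reads in place of FPKM, a sum without Hbb-bt and a total without immunoglobulin and T cell receptor segments were tried.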

Additional observations from a re-analysis of the deposited data

How the results depend on the processing

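Hbb-bt, Hba-a1 and Hbb-bs were called higher under every alternative that tested them, leaving out any library included, with adjusted p of 4.4e-09 to 6.7e-04 for Hbb-bt, 2.3e-04 to 0.0115 for Hba-a1 and 8.5e-04 to 0.00807 for Hbb-bs (limma). With a filter of 5 FPKM, 1 globin gene was called, since Hba-a1 and Hbb-bs were then not tested. With no filter, 4 were called, the addition being Hba-a2 as lower (log2 fold change -0.24, adjusted p = 0.0257), while Hbb-y was not called (0.31, adjusted p = 0.240). Log2 fold changes of the low genes depend on the scale: they were 1.94 for Hba-a1 and 1.83 for Hbb-bs with a pseudocount of 0.1, and 2.06 and 1.97 with voom on recovered reads, which called 2725 genes higher and 2546 lower. The summed globin reads differed by 1.94 (log2) without Hbb-bt, in place of 3.04. The replicate block left all 3 calls in place (adjusted p = 6.7e-04 for Hbb-bt, 0.00839 for Hba-a1 and 0.00695 for Hbb-bs) and gave 2063 higher and 2044 lower calls over all genes. Deviations of libraries with the same number correlated by -0.0046, -0.011 and -0.026, so no shared effect of the number was seen. Whether libraries with the same number were collected together is not stated in the sources used here. Depth limits Hba-a2, Hbb-y, Hbb-bh1 and Hba-x, with at most 6 reads in any library.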
